A study of Mus musculus with 6 samples.

Results

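The MHC class II pathway was followed through 10 genes in SL4, a luciferase-expressing mouse colorectal cancer (CRC) cell line. The genes were Ciita, Cd74, H2-Aa, H2-Ab1, H2-Eb1, H2-DMa, H2-DMb1, Ifi30, Ctss and Lgmn, taken by their symbols from the 53700 genes of the deposited table, and each symbol named a single gene. RNA-seq libraries came from 3 pLV-Control samples, SL4 cells without SEMA6A overexpression, and from 3 pLV-SEMA6A samples, SL4 cells that overexpress SEMA6A stably from a lentivirus. The labels do not say whether the control cells received a vector, which promoter drives SEMA6A, or whether the replicates came from separate cultures, so p-values measure the spread between these libraries, which may be technical. No second pLV-SEMA6A line is described, and an effect of SEMA6A cannot be told apart from a difference between 2 cell lines.

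MHC class II molecules are pairs of an alpha and a beta chain that show peptides to CD4+ T cells, and they are made mainly by dendritic cells, B cells and macrophages. CIITA, which interferon gamma induces, switches the class II genes on together with factors that sit on paired X and Y boxes in their promoters. The new chains are held by the invariant chain CD74, proteases of the endolysosome trim the invariant chain and the antigens, and the DM molecule then exchanges the remaining fragment for peptide. Tumour cells of epithelial origin usually lack class II unless interferon gamma is present.

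Levels are in TPM, the share of a library's transcripts scaled by gene length, a unit that keeps no read depth, so no detection limit could be derived. Each library summed to between 977400 and 986444 TPM. Sema6a, the overexpressed gene, was listed at 0 throughout pLV-Control, and its pLV-SEMA6A levels of 98.68, 118.42 and 112.22 TPM go the way the labels give. Differences are log2 fold changes of TPM + 1, pLV-SEMA6A over pLV-Control, from limma, with Benjamini-Hochberg correction across 12510 tested genes, those whose mean reached 1 TPM. To count as a differentially expressed gene (DEG), a gene needed adjusted p below 0.05 plus a log2 fold change beyond 0.5 in either direction. This scale understates the change of low genes.

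The promoter sequences show letters that near-0 class II chain genes share with the expressed H2-DMb1. RefSeq promoters on GRCm38.p6, 250 bases before to 50 after each start site, were found for 7 of the 10 genes, and Ciita, Cd74 and H2-Ab1 had no entry. The stretches below run from 12 bases before the AAC of the X box to the bases after the Y box, and their capitals mark the AAC and the Y box core GATTGG. H2-Aa (chr17:34287861-34287914, minus strand) and H2-Eb1 (chr17:34305766-34305818, plus strand) were listed at 0, H2-DMb1 (chr17:34153087-34153140, plus strand) was expressed, and its near copy H2-DMb2 (chr17:34145116-34145169, plus strand) was near 0.
H2-Aa: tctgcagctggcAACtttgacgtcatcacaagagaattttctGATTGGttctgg
H2-Eb1: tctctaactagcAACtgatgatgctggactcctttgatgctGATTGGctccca
H2-DMb1: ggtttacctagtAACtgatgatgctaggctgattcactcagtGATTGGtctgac
H2-DMb2: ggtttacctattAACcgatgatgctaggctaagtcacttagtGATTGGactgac

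The Y box core began 49 bases before the start site of H2-Aa, 60 before that of H2-Eb1, 62 before that of H2-DMb1 and 91 before that of H2-DMb2. AAC followed by GATTGG after a gap of 24 to 28 bases, on either strand, occurred in 364 of all 32851 promoters (1.11%). It was present for H2-Aa, H2-Eb1 and H2-DMb1 among the 7 genes with an entry. Among the other class II chains it was present for H2-DMb2, H2-Eb2, H2-Oa and H2-Ob. H2-DMa, the other expressed chain gene, had GATTGG but not the spaced pair, and other forms of the X box were not searched. The gap was chosen after these sequences were seen, and GATTGG alone occurred in 16.1% of promoters. H2-DMb1 and H2-Eb1 shared the 13-base run AACTGATGATGCT, found in 3 of all promoters on either strand. The letters are a description and show no binding.

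**Figure D1:**
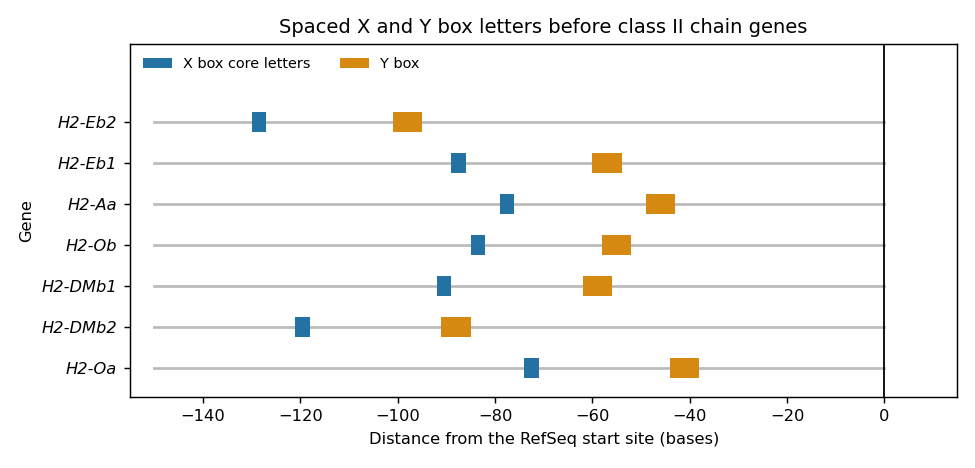
Positions of the X box core letters (blue) and the Y box (orange) before the RefSeq start sites of 7 class II chain genes, with the distance from the start site in bases on the horizontal axis. In all 7 the pair lies within 130 bases of the start, at a gap of 24 to 27 bases, whether the gene was expressed (H2-DMb1) or near 0 (the others). H2-DMa, also expressed, had no such pair and is not drawn.

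The genes for the peptide-presenting class II chains were listed at 0 TPM in all 6 libraries. These are H2-Aa (ENSMUSG00000036594), the alpha chain of I-A, H2-Ab1 (ENSMUSG00000073421), its beta chain, and H2-Eb1 (ENSMUSG00000060586), the beta chain of I-E, all on chromosome 17. A value of 0 without counts can also be a failed estimate, so no absence is claimed and no fold change is given. Reads lost to similar genes were limited in the annotation, since 0.267% of the 31-base stretches of H2-Ab1 transcripts, 0.911% of those of H2-Aa and 1.06% of those of H2-Eb1 also occurred in other genes. The class I heavy chains H2-K1 and H2-D1 summed to between 2740.02 and 2773.48 TPM in pLV-Control and between 433.44 and 448.72 TPM in pLV-SEMA6A.

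Ciita (ENSMUSG00000022504, chromosome 16), the class II transactivator, was listed at 0.03, 0 and 0.17 TPM across pLV-Control libraries, against 0.49, 0.02 and 0 TPM across pLV-SEMA6A libraries. The groups overlapped and 1 pLV-SEMA6A library was the highest, and Ciita was near 0 in both. Dexi, a gene on the opposite strand that overlaps Ciita in the GENCODE M21 annotation, averaged 12.9 TPM across pLV-Control libraries, against 7.30 TPM with SEMA6A. How the counting used strand is not given in the sources used here, so a few of the reads given to either gene could belong to the other.

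The other class II chains were also near 0. H2-Ob, H2-Eb2 and H2-Ea were listed at 0 in every library, H2-Oa reached 0.21 TPM and H2-DMb2 0.01 TPM. H2-Oa and H2-Ob encode the DO molecule, a regulator of DM in B cells. None of these 5 genes reached the mean of 1 TPM needed for a test.

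Cd74 (ENSMUSG00000024610, chromosome 18), the invariant chain, was expressed in libraries where the chains it escorts were listed at 0. It was at 15.95, 12.99 and 14.63 TPM across pLV-Control libraries, against 8.41, 8.28 and 9.48 TPM across pLV-SEMA6A libraries. Every pLV-SEMA6A library lay below every pLV-Control library. The mean fell by 39.9%, from 14.5 ± 1.48 to 8.72 ± 0.66 TPM (SD, n = 3 each), which limma put at a log2 change of −0.67 (standard error 0.09, 95% confidence interval −0.89 to −0.45, adjusted p = 0.00136). In pLV-Control the level of Cd74 was above that of 42.9% of the genes tested, and in pLV-SEMA6A above that of 33.2%. In bulk RNA, fewer cells of a type and less RNA per cell cannot be told apart.

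Cd74 was also set against the class I chain H2-D1 of the same library. Cd74 amounted to between 0.774% and 0.962% of the H2-D1 level in pLV-Control and to between 3.14% and 3.54% in pLV-SEMA6A. The log2 ratio was higher by 1.92 in pLV-SEMA6A, since H2-D1 fell by 2.65 on the log2 scale and Cd74 by less. The exact permutation test (two-sided) gave p = 0.1, its lower limit with 3 libraries a group, so it could not reach 0.05.

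DM is built from the products of H2-DMa and H2-DMb1, and 1 of the pair was a DEG. H2-DMb1 (ENSMUSG00000079547, chromosome 17), the beta chain, was at 13.98, 14.73 and 15.70 TPM across pLV-Control libraries, against 7.81, 6.51 and 8.03 TPM across pLV-SEMA6A libraries. The groups did not overlap. Its mean fell by 49.7%, from 14.8 ± 0.86 to 7.45 ± 0.82 TPM (SD, n = 3 each), which limma put at a log2 change of −0.91 (standard error 0.09, 95% confidence interval −1.12 to −0.69, adjusted p = 0.000372). This was the largest absolute log2 fold change among the 5 pathway genes tested. Other genes, mainly H2-DMb2, contain 31.4% of the 31-base stretches of H2-DMb1 transcripts, which makes the split of reads between them uncertain, and H2-DMb2 was listed at 0.01 TPM or less in each library.

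H2-DMa (ENSMUSG00000037649, chromosome 17), the alpha chain, was at 1.05, 2.42 and 3.70 TPM across pLV-Control libraries, against 2.10, 1.78 and 2.52 TPM across pLV-SEMA6A libraries. The pLV-SEMA6A values lay within the range of the pLV-Control values. By limma, the log2 fold change was −0.04 (95% confidence interval −0.77 to 0.69, adjusted p = 0.926), an interval that holds falls of the size of Cd74 and Lgmn as well as no change. H2-DMb1 exceeded H2-DMa by 4.24 to 13.3 times in pLV-Control and by 3.19 to 3.72 times in pLV-SEMA6A. The difference in the log2 ratio was −1.0, with p = 0.1 from the same exact permutation test, the smallest it can give, and −0.53 without pLV-Control replicate 1, where H2-DMa was lowest. H2-DMa overlaps Brd2 on the opposite strand, and 9.23% of the 31-base stretches of its transcripts occur in other genes, mainly Brd2, which averaged 155 TPM across pLV-Control libraries, against 133 TPM with SEMA6A.

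**Figure D2:**
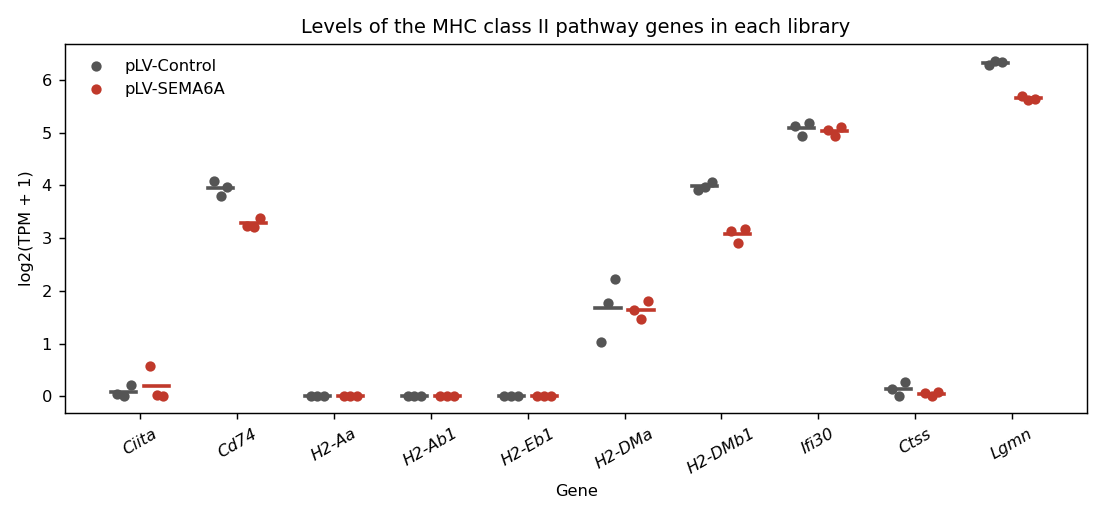
log2(TPM + 1) of the 10 class II pathway genes, with 1 point per library and a bar at each group mean (grey pLV-Control, red pLV-SEMA6A, n = 3 each). Ciita, H2-Aa, H2-Ab1, H2-Eb1 and Ctss lie near 0, the groups are apart for Cd74, H2-DMb1 and Lgmn, and they overlap for H2-DMa and Ifi30.

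Among the genes that process antigen, Lgmn fell, Ifi30 did not pass the test and Ctss was near 0. Lgmn (ENSMUSG00000021190, chromosome 12) encodes legumain, an endolysosomal protease that cuts after asparagine. It was at 76.39, 81.34 and 80.08 TPM across pLV-Control libraries, against 50.94, 48.23 and 48.62 TPM across pLV-SEMA6A libraries. The groups did not overlap and Lgmn was the most abundant of the 10 genes in every library. Its mean fell by 37.9%, from 79.3 ± 2.57 to 49.3 ± 1.47 TPM (SD, n = 3 each), which limma put at a log2 change of −0.68 (standard error 0.04, 95% confidence interval −0.77 to −0.58, adjusted p = 4.5e-05).

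Ifi30 (ENSMUSG00000031838, chromosome 8) encodes GILT, a thiol reductase that opens disulfide bonds of antigens and is known to be induced by interferon gamma. It was at 34.17, 29.61 and 35.56 TPM across pLV-Control libraries, against 32.21, 29.79 and 33.39 TPM across pLV-SEMA6A libraries. The groups overlapped. By limma, the log2 fold change was −0.05 (95% confidence interval −0.24 to 0.14, adjusted p = 0.602), an interval that leaves out falls of the size of Cd74, H2-DMb1 and Lgmn.

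Ctss (ENSMUSG00000038642, chromosome 3) encodes cathepsin S, which trims the invariant chain in B cells and dendritic cells. It was listed at 0.10, 0 and 0.21 TPM across pLV-Control libraries, against 0.05, 0 and 0.06 TPM across pLV-SEMA6A libraries. No library reached 1 TPM and Ctss was not tested. Its promoter carried letters of an interferon-stimulated response element 21 bases before the start site, GAAANNGAA, in capitals in this stretch at chr3:95526755-95526784 on the plus strand, shown because Ctss was near 0 in cells that expressed the interferon-induced gene Irf1.
Ctss: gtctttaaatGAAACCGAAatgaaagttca

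Those letters, searched on both strands, occurred in 8.56% of all promoters and in no other of the 7 genes with an entry. CACGTG, an E box, occurred in the promoters of Ifi30 and Lgmn and in 7.15% of all promoters. The gamma-activated site letters TTCNNNGAA were in none of the 7 genes and in 8.30% of all promoters. All these letters are a description and show no binding, and whether Irf1 acts on Ctss was not tested.

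Of the 10 pathway genes, 5 were under 0.5 TPM in every library (Ciita, H2-Aa, H2-Ab1, H2-Eb1 and Ctss), and 5 had a mean of at least 1 TPM. In the whole table, 37858 of 53700 genes were under 0.5 TPM in every library, and 29182 were listed at 0 throughout. Levels near 0 are therefore not particular to this pathway. Of the 5 tested, 3 were DEGs lower in pLV-SEMA6A, while 10.8% of all genes tested were, and 0 were DEGs higher, while 5.12% of all genes were. The libraries of both groups did not overlap, with pLV-SEMA6A lower, for the same 3 genes and for 34.7% of all genes tested. The median log2 fold change of the 5 was −0.67 and that of all genes tested −0.06. After median centring of each library, the 1347 lower and 640 higher DEGs of all genes became 961 and 1002, and the 3 genes remained DEGs with log2 fold changes of −0.81 for H2-DMb1 and −0.58 for Cd74 and Lgmn. Of all genes tested, 4.21% had a lower log2 fold change than H2-DMb1, 7.64% than Cd74 and 7.59% than Lgmn.

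**Figure D3:**
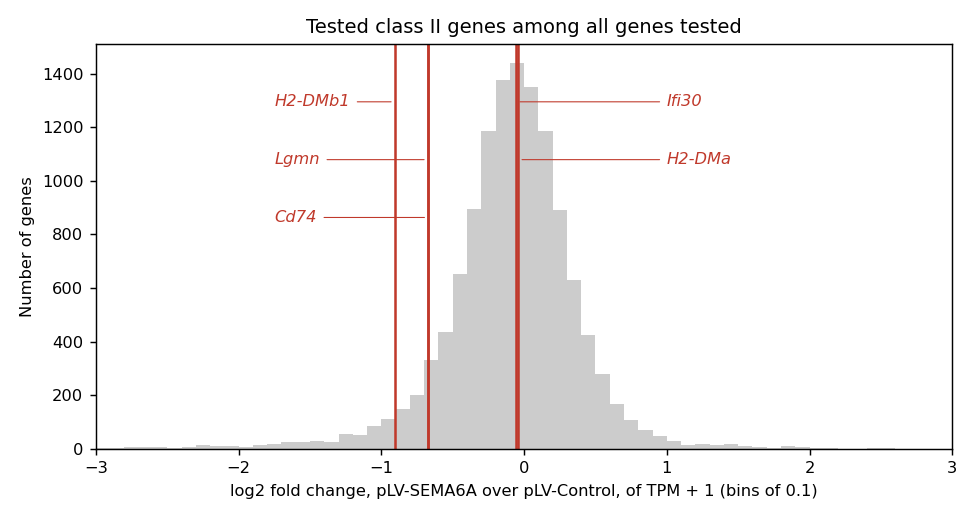
Number of genes (vertical axis) by log2 fold change of TPM + 1 in bins of 0.1 for the genes tested, drawn from −3 to 3, with red lines at the 5 tested class II pathway genes. H2-DMb1, Lgmn and Cd74 lie in the lower tail, and Ifi30 and H2-DMa near the centre.

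In pLV-Control the order of levels was Lgmn, Ifi30, H2-DMb1, Cd74 and H2-DMa. The ranges of H2-DMb1 and Cd74 overlapped in that group, and those of the other neighbours did not. In pLV-SEMA6A Cd74 stood above H2-DMb1, with ranges of 8.28 to 9.48 and 6.51 to 8.03 TPM.

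The factors that bind the X and Y boxes were expressed in both groups, and Rfx5 was lower while Nfyc was higher in pLV-SEMA6A. RFX5, RFXAP and RFXANK form the complex on the X box, and NF-YA, NF-YB and NF-YC that on the Y box. Of 7 genes, all tested, 1 was a DEG lower (Rfx5) and 2 were DEGs higher (Nfyc and Rfxap), where 10.8% of all genes tested were DEGs lower and 5.12% DEGs higher. Rfx5 was at 17.78, 17.59 and 18.50 TPM across pLV-Control libraries, against 8.24, 9.08 and 8.11 TPM across pLV-SEMA6A libraries, which limma put at a log2 change of −1.0 (standard error 0.06, adjusted p = 5.3e-05).
Nfyc was at 19.55, 16.90 and 22.39 TPM across pLV-Control libraries, against 35.83, 38.34 and 43.87 TPM across pLV-SEMA6A libraries, which limma put at a log2 change of 0.97 (standard error 0.12, adjusted p = 0.000790). For both genes the groups were far apart, and they lay on opposite sides. Rfxap was at 18.16, 23.81 and 22.27 TPM across pLV-Control libraries, against 25.07, 39.34 and 32.70 TPM across pLV-SEMA6A libraries. Its log2 change of 0.56 (adjusted p = 0.0358 from limma) lost the call without pLV-Control replicate 1 or 3 and without pLV-SEMA6A replicate 2 or 3 (adjusted p from 0.0726 to 0.101 from limma). Nfya had an adjusted p of 0.000563 from limma with a log2 fold change of −0.38, short of the minimum. Rfxank, Nfyb and Creb1 did not pass the test.

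The genes that carry the interferon gamma signal to Ciita were expressed, and of the 6 examined 1 was a DEG, Irf1, which was lower, as were 10.8% of all genes tested. Irf1, an interferon-induced factor that binds the Ciita promoter, was at 26.69, 29.28 and 25.06 TPM across pLV-Control libraries, against 12.20, 10.37 and 12.81 TPM across pLV-SEMA6A libraries, which limma put at a log2 change of −1.13 (standard error 0.09, adjusted p = 0.000166). The log2 fold change of Irf1 lay below that of H2-DMb1, with overlapping confidence intervals, and Ciita was near 0 in both groups.
With no minimum fold change, 4 of the 6 were lower and 1 higher, where 28.2% of all genes tested were lower and 19.5% higher. The receptor chains Ifngr1 and Ifngr2 had log2 fold changes of −0.23 and −0.18, Jak2 −0.32 and Jak1 0.19. After centring on the median, Ifngr2 did not pass the test (adjusted p = 0.196).

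**Figure D4:**
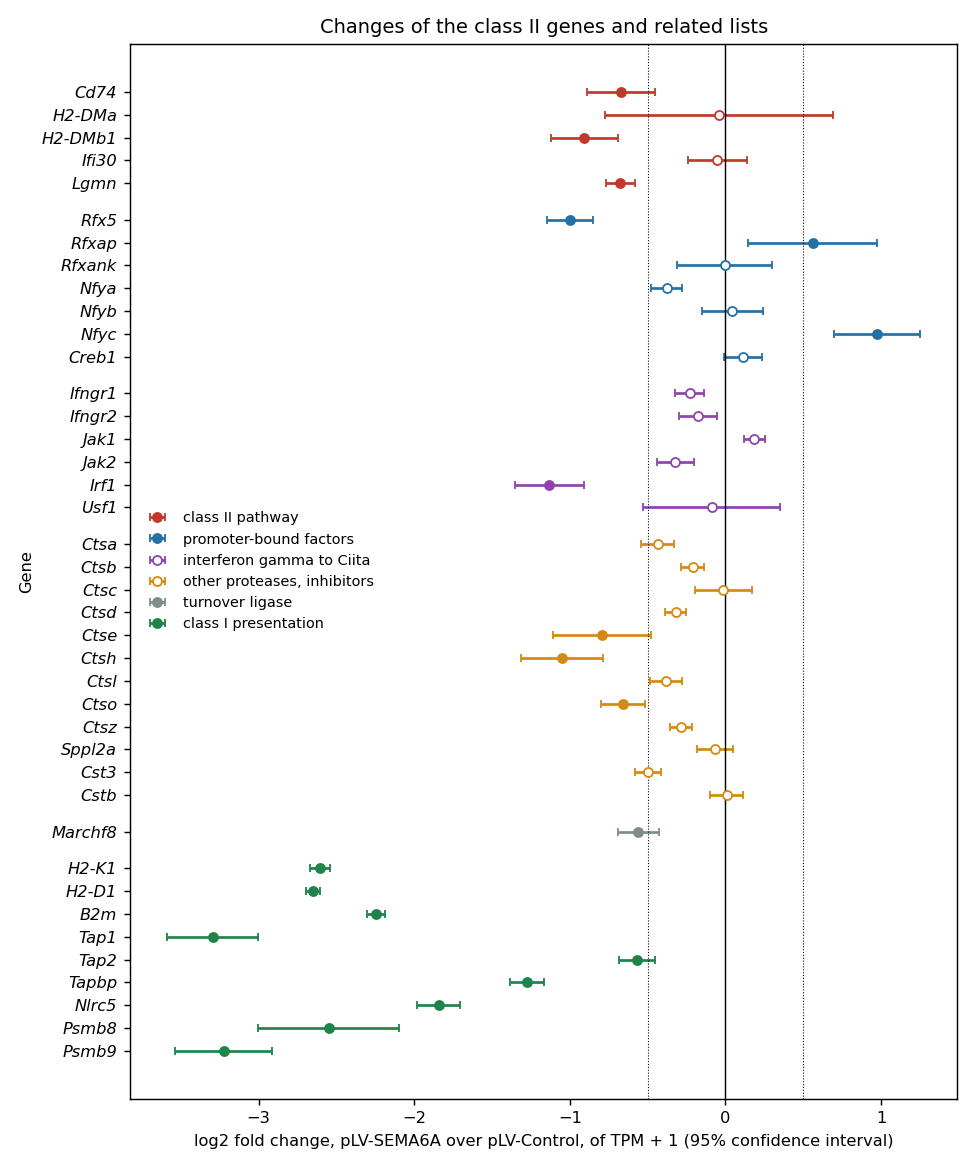
log2 fold change of TPM + 1 with its 95% confidence interval from limma for each tested gene of the class II pathway and of the related lists (n = 3 libraries a group). Filled points are DEGs, and dotted lines mark the minimum of 0.5 either way. Class I presentation genes other than Tap2 lie below −1, and Nfyc and Rfxap are the DEGs to the right.

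Of 15 other endolysosomal proteases and inhibitors, 12 were tested and 3 were DEGs, all lower, namely Ctsh, Ctse and Ctso. Among all genes tested, 10.8% were DEGs lower. Ctsh, the aminopeptidase cathepsin H, was at 49.89, 51.78 and 44.89 TPM across pLV-Control libraries, against 21.26, 21.03 and 27.27 TPM across pLV-SEMA6A libraries, which limma put at a log2 change of −1.05 (standard error 0.11, adjusted p = 0.000445). Ctse, cathepsin E, had a log2 fold change of −0.79, and Ctso, cathepsin O, one of −0.66.
With no minimum fold change 9 of the 12 were lower, against 28.2% of all genes tested, and the median log2 fold change of the 12 was −0.35, against −0.06. Ctsl, cathepsin L, which trims the invariant chain in the thymic epithelium, averaged 833 TPM across pLV-Control libraries, against 639 TPM with SEMA6A, while Ctss was near 0 in both. The log2 fold change of Ctsl was −0.38, short of the minimum. Cst3, cystatin C, an inhibitor of these proteases, had one of −0.50, just short of the minimum. Sppl2a, which removes the last fragment of the invariant chain, Ctsc and Cstb did not pass the test. Of the ubiquitin ligases that send class II molecules for degradation, Marchf1 was near 0, and Marchf8 was a DEG with a log2 fold change of −0.56 that became −0.47, short of the minimum, after centring.

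Class I presentation was measured in the same libraries. All 9 genes listed for it were DEGs lower in pLV-SEMA6A, while 10.8% of all genes tested were. Of these, Psmb8 averaged 8.13 TPM across pLV-Control libraries, against 0.58 TPM with SEMA6A, and Psmb9 12.75 against 0.47 TPM. Both reached the tested mean of 1 TPM only through pLV-Control. With a mean of 5 TPM required, Psmb8 was not tested. The median log2 fold change of the 9 was −2.55, the value of Psmb8, against −0.06 for all genes tested. The TPM + 1 scale understates falls to such low levels, so Tap1 and Psmb9 are not ranked here. The log2 fold changes were −3.29 for Tap1, −3.23 for Psmb9, −2.65 for H2-D1, −2.61 for H2-K1, −2.55 for Psmb8, −2.25 for B2m and −1.27 for Tapbp. That of Tap2 was −0.57, short of the minimum after centring (−0.48). Nlrc5, the class I counterpart of Ciita, fell from 35.8 ± 2.12 to 9.24 ± 0.23 TPM (SD, n = 3 each), which limma put at a log2 change of −1.84 (adjusted p = 3.7e-06), where Ciita did not exceed 0.49 TPM in any library.

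Markers of the cells that usually make class II were near 0. Among all 53700 genes of the table, 37858 were under 0.5 TPM in every library. Of 13 haematopoietic markers, 11 were under 0.5 TPM in every library, among them Ptprc, Itgax, Ms4a1 and Spi1, and Itgam, Adgre1, Tyrobp and Spi1 were listed at 0 throughout. The 13 markers summed to 1.44 to 2.86 TPM in pLV-Control and 1.10 to 1.88 TPM in pLV-SEMA6A, to which Cd68 gave between 0.68 and 1.97 TPM. Cd74 alone was at 8.28 TPM or more, and which cells its RNA came from was not tested.
Of 8 colon epithelial markers, 7 were under 0.5 TPM in every library, against the colorectal label of the line. Epcam and Cdx2 were listed at 0 in all 6 libraries, Cdh1, Krt18 and Krt19 did not exceed 0.11 TPM, and Lgals4, the highest of the 8 in pLV-Control, was a DEG at means of 2.15 and 0.363 TPM (log2 fold change −1.24, adjusted p = 0.00760 from limma). Lgals4 reached the tested mean of 1 TPM only through pLV-Control, and with a mean of 5 TPM required it was not tested. The 8 markers summed to 1.91 to 2.78 TPM in pLV-Control and 0.53 to 1.33 TPM in pLV-SEMA6A. Without Lgals4 their sum was 0.13 to 0.45 TPM and 0.25 to 0.54 TPM, ranges that overlap. Stromal markers summed to 15.1 to 15.9 TPM in pLV-Control and 9.51 to 11.0 TPM in pLV-SEMA6A, with Pdgfrb at means of 10.5 and 6.66 TPM. Without Pdgfrb the stromal sum was 4.33 to 5.51 TPM and 2.98 to 4.04 TPM, and Dcn did not pass the test. Of the 5, 3 were tested and Pdgfra and Pdgfrb were DEGs lower, while 10.8% of all genes tested were. Pdgfrb lost this call after centring (−0.49). Pdgfra lost it without pLV-Control replicate 2 or without pLV-SEMA6A replicate 2 or 3 (adjusted p from 0.0511 to 0.0731 from limma). Pdgfra averaged 1.76 TPM across pLV-Control libraries, against 0.78 TPM with SEMA6A. It too reached the tested mean of 1 TPM only through pLV-Control, and with a mean of 5 TPM required it was not tested. Lgals4 and the stromal sum were lower in pLV-SEMA6A, as were Cd74, H2-DMb1 and Lgmn, and their part in that change was not tested.

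**Figure D5:**
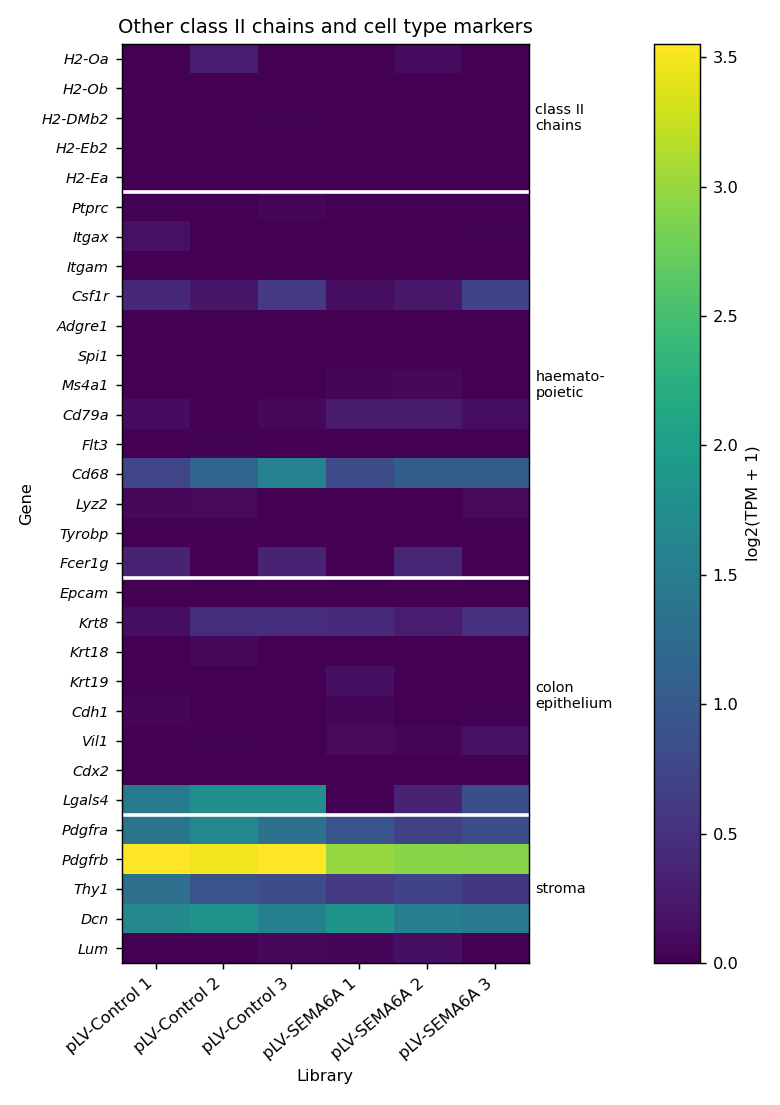
log2(TPM + 1) in each library (columns) of the other class II chains and of haematopoietic, colon epithelial and stromal markers (rows), with colour from dark (0) to yellow. The class II chains and most haematopoietic and epithelial markers are dark in all 6 libraries, and Pdgfrb is the brightest row.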

How the data were processed

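RNA-seq of SL4 cells gave 3 libraries of pLV-Control and as many of pLV-SEMA6A, grouped by the sample labels. The authors deposited 1 value per gene and library, with 2 decimals. The unit was read from the values as TPM, since the libraries have nearly the same total. The submitters' processing notes name RSEM, Bowtie2, HISAT and the build mm39, with no version. The authors used DESeq2, which needs counts that TPM does not keep. The deposited group means were not used.

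log2(TPM + 1) was fitted across all 12510 genes whose mean reached 1 TPM, using limma 3.58.1 (R 4.3.3, trend option, group as the only term), after the steps were tested on simulated data. Shared 31-base stretches, overlaps and chromosomes came from GENCODE M21 on GRCm38, matched by identifier (97.0% of genes), and promoters from RefSeq on GRCm38.p6. Coordinates are given only for the promoter stretches, on GRCm38.p6, which is not the submitters' build mm39.

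The members and lists were chosen with earlier results of these data known, and 2 genes of the lists are not reported here. All 10 members are named, and of the other lists the DEGs, with other genes only as not called, not tested or near 0. Values for genes outside this rule (Brd2, Dexi) and for Ctsl, Cst3, Nfya, Jak1, Jak2, Ifngr1 and Ifngr2 were added after they were seen, as were the ratios without each library and the marker sums without Lgals4 or Pdgfrb. Alternatives were a pseudocount of 0.1, no filter or a mean of 5 TPM, the replicate block, median centring, other minimum fold changes and leaving out each library.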

Additional observations from a re-analysis of the deposited data

How the results depend on the processing

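Cd74, H2-DMb1 and Lgmn remained DEGs in each of the 11 refits. Without a minimum fold change, 3523 genes were lower and 2436 higher. The lower ones included 2 promoter-bound factors, 4 interferon gamma genes and 9 proteases or inhibitors. The higher ones included 2 promoter-bound factors and 1 interferon gamma gene. With a minimum of 1, 304 genes were lower and 81 higher, with 0 members, 1 protease lower and 0 promoter-bound factors higher. Median centring gave 1002 higher DEGs. Promoter-bound factors higher numbered 1 with no filter, since Rfxap lost its call, and between 1 and 2 with each library left out. Below 0.1 TPM, 3 members counted as near 0. H2-DMa turned positive under centring (0.053) and ranged from −0.36 to 0.24 with each library left out, without pLV-Control replicate 2 (0.0068) or 3 (0.24) and without pLV-SEMA6A replicate 2 (0.043) above 0. Ifi30 turned to 0.039 under centring. Neither passed the test in any refit, and with a mean of 5 TPM required H2-DMa was not tested.

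Same-numbered libraries did not deviate together (mean correlation −0.06, from −0.08 to −0.02). With the replicate block, 3 members were lower and 0 higher, with 1301 lower and 623 higher among all genes, and of the 23 DEGs among the lists Pdgfra lost its call (adjusted p = 0.0681 from limma) and no other did. TPM keeps no depth, so how few reads lie behind the near-0 genes is unknown.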

Other observations

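Genes with the pattern most like that of H2-DMb1 over the 6 libraries were Serf2, Gmppa and Snhg8, with Pearson correlations of log2(TPM + 1) of 0.999, 0.998 and 0.998. They were picked from 8183 other genes whose mean reached 10 TPM, and all points share the same 6 libraries in 2 groups, so the values are a description. Mean levels without and with SEMA6A were 367 and 323 TPM for Serf2, 71.1 and 47.2 TPM for Gmppa, and 355 and 237 TPM for Snhg8.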
